A study of Mus musculus with 42 samples.

Results

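A set of 10 genes of the early transcriptional response were followed through cultured mouse hippocampal neurons: Fos, Fosb, Fosl2, Jun, Junb, Jund, Atf3, Npas4, Ier2 and Btg2. They were chosen by gene symbol, with earlier results of these data known, so the shares of all genes set beside them are descriptive. All 10 were found among the 55471 Ensembl genes of the deposited count table. They passed the filter on low counts that left 17609 genes for testing. The neurons were prepared from the hippocampi of NMRI mouse embryos at day 16 and kept 6 to 7 days in culture. In 6 control and 6 BDNF libraries the cells had received vehicle or brain-derived neurotrophic factor (BDNF) at 50 ng/ml for 20 min before washing. In 3 control EV and 3 BDNF EV libraries the hippocampal cells had been given, for 24 h, extracellular vesicles (EVs) collected 16 h after the same treatment from cortical neurons, which had been given vehicle for the control EVs and BDNF for the BDNF EVs. The time between the BDNF exposure of the hippocampal cells and their lysis is not given in the sources used here.

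Library names carry a set number from 1 to 6 and the labels carry a batch letter. The file headers also carry a lane number equal to the set number, so set and lane cannot be told apart. Set 1 is batch a, sets 2 and 3 are batch b, sets 4 and 5 are batch c and set 6 is batch d, and the EV groups exist only in sets 1 to 3. The labels do not say what a batch is or that the libraries of a group are separate cultures, so p-values measure the spread between these libraries, which may be technical. Libraries held from 16274937 to 36835780 counted reads, and none of the 36 pairs of libraries within a group agreed within sampling noise. The smallest count of any of the 10 genes in any library was 11 reads, for Fosb in control EV 1, with an exact 95% Poisson interval of 5.49 to 19.7 that covers counting error only. The 11 neuron markers examined were all present, Map2 at a mean of 1942 CPM (counts scaled to the library total), and astrocyte markers such as Gfap (671 CPM) and oligodendrocyte precursor markers such as Olig1 (389 CPM) were present as well. Of 8 microglia markers, 6 had a mean under 1 CPM, among them Cx3cr1 at 0.0796, P2ry12 at 0.0979 and Tmem119 at 0.0282 CPM. Csf1r and Aif1 were higher, at means of 9.17 and 5.53 CPM. Because the libraries come from whole cultures, fewer cells of a type and less RNA per cell cannot be told apart.

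Immediate early genes are transcribed within minutes of a stimulus, without new protein synthesis, from transcription factors already present in the cell such as CREB and SRF, and many of their messenger RNAs are short-lived. Fos and Jun family proteins pair through leucine zippers to form AP-1, which binds DNA and switches on later genes. NPAS4 is a basic helix-loop-helix PAS factor of neurons, induced by calcium entry, that acts on genes of inhibitory synapses. BDNF signals through its receptor TrkB to the ERK kinase cascade, one of the routes to these genes.

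RefSeq promoter windows of GRCm38.p6, from 250 bases before to 50 bases after the start that the RefSeq promoter table uses, were matched to 9 of the 10 genes, all but Ier2. The half-site of the cyclic AMP response element (CRE), the site of CREB, TGACG on either strand, was found in 6 of these 9 windows and in 20.8% of all 32851 windows of that table, and the full element TGACGTCA, which contains the half-site on both strands, in 1 of 9 and in 1.79%. The AP-1 site TGANTCA was in 0 of 9 (7.81% of all windows) and the CArG box, the site of SRF, in 0 of 9 (1.63% of all). Sites more than 250 bases before or 50 bases after the start were not searched, so these counts cover the windows only. The windows of Fos, Fosb, Junb and Npas4 are shown because these 4 genes swung widely and together, and that of Btg2 because it is the one with the full element. Capitals mark the CRE half-sites on either strand, and a match is a description of the letters, not of a bound site. The windows lie at chr12:85473640-85473939 (plus strand) for Fos, chr7:19309996-19310295 (minus strand) for Fosb, chr8:84978699-84978998 (minus strand) for Junb, chr19:4989922-4990221 (minus strand) for Npas4 and chr1:134079106-134079405 (minus strand) for Btg2, each written 5′ to 3′ in the gene's direction.
Fos: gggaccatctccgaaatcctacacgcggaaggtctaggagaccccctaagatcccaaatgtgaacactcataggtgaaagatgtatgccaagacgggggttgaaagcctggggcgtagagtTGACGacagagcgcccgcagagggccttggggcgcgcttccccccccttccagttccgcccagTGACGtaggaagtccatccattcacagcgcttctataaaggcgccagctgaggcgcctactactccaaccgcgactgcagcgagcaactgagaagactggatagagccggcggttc
Fosb: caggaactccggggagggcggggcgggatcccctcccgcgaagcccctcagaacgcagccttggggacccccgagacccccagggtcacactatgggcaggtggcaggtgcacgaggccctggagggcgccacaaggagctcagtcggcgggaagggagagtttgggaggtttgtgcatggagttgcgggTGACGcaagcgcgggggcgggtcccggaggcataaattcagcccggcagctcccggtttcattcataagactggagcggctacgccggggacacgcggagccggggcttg
Junb: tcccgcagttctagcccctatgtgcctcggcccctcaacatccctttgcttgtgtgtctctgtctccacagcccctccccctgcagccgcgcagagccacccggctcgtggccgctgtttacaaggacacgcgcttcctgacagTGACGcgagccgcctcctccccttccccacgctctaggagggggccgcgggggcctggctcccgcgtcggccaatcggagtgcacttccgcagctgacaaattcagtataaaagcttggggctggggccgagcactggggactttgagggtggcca
Npas4: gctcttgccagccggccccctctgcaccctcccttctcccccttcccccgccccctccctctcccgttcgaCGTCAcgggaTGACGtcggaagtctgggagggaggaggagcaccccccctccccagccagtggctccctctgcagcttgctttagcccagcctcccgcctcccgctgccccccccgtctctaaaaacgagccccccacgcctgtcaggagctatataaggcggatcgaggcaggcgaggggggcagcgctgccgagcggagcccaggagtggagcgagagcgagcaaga
Btg2: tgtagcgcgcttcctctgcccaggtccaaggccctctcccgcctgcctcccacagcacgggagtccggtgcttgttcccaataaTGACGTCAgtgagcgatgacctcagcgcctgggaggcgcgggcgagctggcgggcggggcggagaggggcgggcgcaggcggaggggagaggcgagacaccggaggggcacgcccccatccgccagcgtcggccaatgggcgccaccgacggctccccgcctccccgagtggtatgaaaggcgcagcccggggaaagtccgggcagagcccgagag
Positions are counted from the start each window was built on. It is the first base of the annotated gene for Fos, Junb and Btg2, but lies 73 bases inside the annotated span of Fosb and 13468 bases inside that of Npas4. The half-sites of Fos start 129 and 66 bases before it, that of Fosb 60 bases and that of Junb 106 bases before it. Npas4 carries them 179 and 169 bases before its window's start, on opposite strands, and in Btg2 the full element starts 166 bases before it.

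The levels of Fos, Fosb, Junb and Npas4 varied widely between libraries of the same treatment. Fos, the founding member of its family, stood at 26.0, 146, 228, 187, 128 and 25.6 CPM in control sets 1 to 6. In BDNF sets 1 to 6 its level was 21.3, 24.2, 31.1, 231, 181 and 17.4 CPM. Control EV sets 1 to 3 gave 5.79, 96.1 and 31.0 CPM, and BDNF EV sets 1 to 3 gave 5.40, 7.75 and 9.84 CPM. Fos was thus low in both groups of sets 1 and 6 and high in both groups of sets 4 and 5, while in sets 2 and 3 the controls were high and the BDNF libraries low. Npas4 followed the same course, with 30.3, 167, 256, 189, 145 and 17.9 CPM in the control sets. Its BDNF sets gave 22.8, 22.1, 38.6, 242, 197 and 13.7 CPM. In control EV sets it stood at 1.91, 108 and 28.5 CPM, and in BDNF EV sets at 1.70, 4.55 and 7.95 CPM. Control EV 2 was high beside the other libraries of its group, and the BDNF EV libraries were all below every control and every BDNF library.

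**Figure D1:**
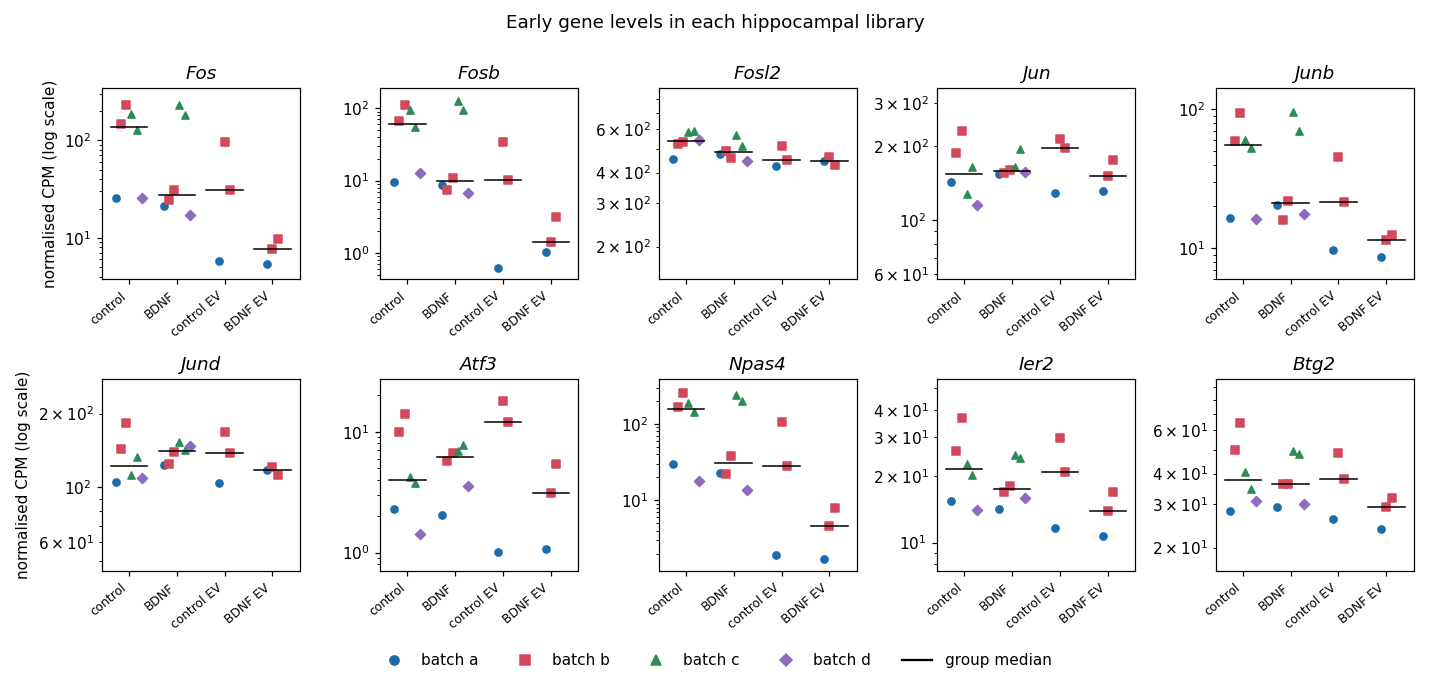
Normalised CPM (log scale) of the 10 genes in each of 18 libraries, by group; each point is a library, its colour and shape give the batch, and the line is the group median. Fos, Fosb, Junb and Npas4 spread over more than an order of magnitude with batch c high in both the control and the BDNF group, while Fosl2 stayed between 425 and 590.3 CPM.

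Fosb, whose protein is also an AP-1 partner, had a median of 61.1 CPM (lowest 9.44, highest 112) in controls and 9.81 CPM (6.73 to 128) after BDNF. Its control EV libraries held 0.619, 34.5 and 10.0 CPM and its BDNF EV libraries 1.02, 1.39 and 3.17 CPM, so that the lowest level of all 18 was in a control EV library. Junb had a median of 55.6 CPM (16.2 to 94.0) in controls and 21.0 CPM (16.0 to 95.1) after BDNF, with control EV at 9.73, 45.2 and 21.4 CPM and BDNF EV at 8.57, 11.5 and 12.5 CPM. The control and BDNF ranges of both genes overlapped almost fully.

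Of the other 6 genes, 5 moved over narrower ranges than these, and Atf3 did not. Ier2, a nuclear early response protein, had medians of 21.5 CPM (14.1 to 36.6) in controls, 17.5 (14.2 to 24.9) after BDNF, 20.9 (11.7 to 29.7) with control EVs and 13.9 (10.7 to 17.0) with BDNF EVs. Btg2, an antiproliferative protein that recruits the CCR4-NOT deadenylase, had medians of 37.8 (28.2 to 64.5), 36.3 (29.4 to 49.6), 38.1 (26.2 to 48.8) and 29.2 CPM (23.9 to 31.7) in the same order. Atf3, a stress-induced leucine zipper repressor, had medians of 3.98 (1.44 to 14.1), 6.17 (2.05 to 7.81), 12.0 (1.01 to 18.1) and 3.12 CPM (1.07 to 5.39). For all 3 the control and BDNF ranges overlapped.

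Jun, the central AP-1 partner of the FOS proteins, stayed between 115 and 229.9 CPM, with medians of 154 in controls, 158 after BDNF, 197 with control EVs and 150.4 with BDNF EVs. Jund, the more constantly expressed JUN protein, stayed between 104 and 184 CPM, with medians of 123, 141, 138 and 118 CPM. Fosl2, the gene of FRA2, stayed between 425 and 590.3 CPM, with medians of 537, 483, 451 and 448 CPM. These 3 genes ranged 2.00-fold, 1.77-fold and 1.39-fold over the 18 libraries, against 42.7-fold for Fos, 207-fold for Fosb, 150.1-fold for Npas4, 11.1-fold for Junb and 17.8-fold for Atf3.

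Set beside all 17609 tested genes, the spread of the first group was at the far end. The standard deviation of log2 CPM over the 18 libraries was 2.36 for Fosb, 2.33 for Npas4, 1.87 for Fos, 1.20 for Atf3 and 1.15 for Junb, above that of at least 99.5% of the genes, whose median was 0.16. That of Ier2 (0.47) lay above 90.4% and that of Btg2 (0.39) above 84.1% of genes. Jun (0.27), Jund (0.23) and Fosl2 (0.15) lay above 71.5%, 65.7% and 46.9%. In the 6 control libraries alone the standard deviations were 1.58 for Npas4, 1.52 for Fosb, 1.42 for Fos, 1.21 for Atf3 and 1.06 for Junb. The median over all genes was 0.149 in these libraries.

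The batches differed in 8 of the 10 genes by edgeR's quasi-likelihood F test over 3 batch coefficients (Benjamini-Hochberg adjusted p from 0.0043 for Atf3 to 0.031 for Junb), all but Jun (adjusted p = 0.1002) and Jund (adjusted p = 0.278). DESeq2's likelihood ratio test called Jun as well (adjusted p = 0.0414). Over all genes tested, 34.5% differed between batches. Relative to batch a with the group held constant, Fos was higher by 2.06 (log2) in batch b and 3.15 in batch c, and within 0.065 of batch a in batch d. Npas4 was higher by 2.39 and 3.31 and Fosb by 2.43 and 3.71, Junb by 1.22 and 1.92, in batches b and c. In this fit Atf3 alone among these 5 was higher in batch b (2.43) than in batch c (1.71) relative to batch a. The fit takes the same group differences in every batch, and the order of batches b and c depended on the group. Fos in controls stood at 146 and 228 CPM in batch b and at 187 and 128 CPM in batch c. After BDNF it stood at 24.2 and 31.1 CPM in batch b and at 231 and 181 CPM in batch c. The call of Junb was lost without control 1, control 6, BDNF 1, BDNF 4, BDNF 5, BDNF 6 or control EV 1 (adjusted p from 0.0518 to 0.0783). That of Btg2 was lost without control 1, control 2, control 6, BDNF 1, BDNF 6 or control EV 1 (0.0521 to 0.0829), and that of Ier2 without control 1, control 6 or control EV 1 (0.0556 to 0.0773).

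**Figure D2:**
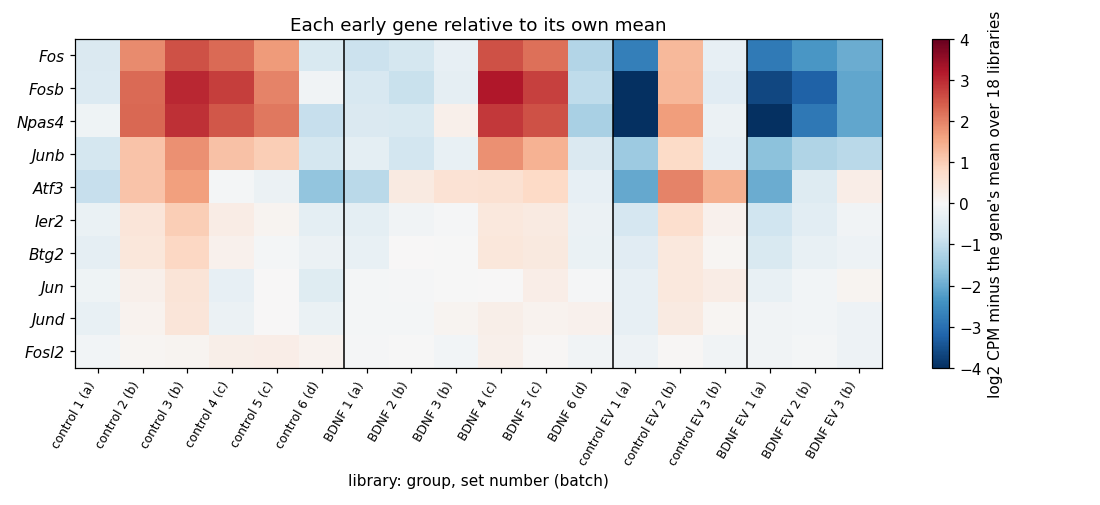
Log2 CPM of each gene minus its mean over the 18 libraries, one column per library with its group, set number and batch, red above and blue below the mean. Control sets 2 to 5, BDNF sets 4 and 5 and control EV 2 are red for Fos, Fosb, Npas4 and Junb, and the 3 BDNF EV columns are blue for the same 4 genes.

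The genes rose and fell together across libraries. Batch means were removed but group means were not, so differences between treatments are part of these correlations and of the likeness ranks that follow. With batch means removed, the Pearson correlation of log2 CPM over the 18 libraries, which share batches, depth and culture conditions, was 0.985 between Fos and Fosb, 0.975 between Fos and Npas4, 0.966 between Fos and Junb, 0.930 between Fos and Ier2 and 0.916 between Fos and Btg2. Atf3 correlated at 0.761 and Jun at 0.565 with Fos, and Fosl2 at 0.687 with Fos but 0.0213 with Jun. Jun and Jund were nearest to each other or to Atf3 (Jun with Atf3 0.845, Jun with Jund 0.817).

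Of 13993 genes with a mean of at least 2 CPM, Nr4a1, an orphan nuclear receptor and early gene, had the pattern most like those of Fos (r = 0.986), Fosb (0.959), Junb (0.983), Npas4 (0.954) and Ier2 (0.968), on the same batch-centred scale over 18 libraries. The second was Pcsk1, a prohormone convertase, for Fos (0.968), the stress sensor gene Gadd45b for Fosb (0.954), its relative Gadd45g for Junb (0.974), B230216N24Rik for Npas4 (0.946) and the leucine zipper repressor gene Nfil3 for Ier2 (0.950). Btg2 was most like Tiparp (0.964) and Nr4a2 (0.956), Atf3 like Kdelr2 (0.970), a receptor that returns proteins to the endoplasmic reticulum, and Tent5a (0.964), and Fosl2 like the importin gene Ipo5 (0.928) and Ecm2 (0.847). Jun was most like Junos (0.954) and Gm42928 (0.914). Junos lies 94 bases from Jun on chromosome 4 in RefSeq GRCm38.p6, with no overlap between the annotated genes, and the library kit does not mark strand. Jund was most like Gm11175 (0.964) and the phosphatase gene Dusp16 (0.918).

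None of the 10 genes was called for direct BDNF exposure by edgeR's test with batch as covariate, against 13.8% of all genes (1321 higher and 1101 lower). This fit takes a common BDNF difference over all batches, and the batches are given apart below. Fos was 0.86 ± 0.53 (SE) lower on the log2 scale (adjusted p = 0.338), Fosb 0.92 ± 0.62 lower (0.395), Npas4 0.84 ± 0.58 lower (0.405) and Junb 0.39 ± 0.40 lower (0.600), with 95% intervals that for Fos ran from -2.02 to 0.30. Without BDNF 2 the differences were -0.52 for Fos, -0.49 for Fosb, -0.44 for Npas4 and -0.13 for Junb, and without BDNF 3 they were -0.56, -0.52, -0.51 and -0.17. Without control 3, Junb was at -0.14, and none of the 4 was called in any of these fits. Of the 10 genes, 1 had an unadjusted p under 0.05, Fosl2, at -0.12 ± 0.04 (adjusted p = 0.0679). Jun, Jund and Atf3 were 0.06 ± 0.13, 0.10 ± 0.12 and 0.05 ± 0.35 above control, and Ier2 and Btg2 0.21 ± 0.17 and 0.10 ± 0.15 below it. Fosl2 passed the threshold when control 1 (adjusted p = 0.0355), BDNF 1 (0.0417) or control EV 2 (0.0446) was left out.

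Within sets the direction of the BDNF difference depended on the batch. In batch b all 10 genes were lower after BDNF in both sets, Fos by 2.60 and 2.87, Fosb by 3.18 and 3.38, Npas4 by 2.92 and 2.73 and Junb by 1.88 and 2.11 (log2 ratio of CPM in sets 2 and 3). In batch c, 9 of the 10 genes were higher after BDNF in both sets, Fos by 0.30 and 0.50, Npas4 by 0.35 and 0.44 and Junb by 0.66 and 0.42 in sets 4 and 5, and the exception was Fosl2. In set 1, the only set of batch a, and in set 6, the only set of batch d, 5 genes were lower and 5 higher, with Fos at -0.29 and -0.56 and Npas4 at -0.41 and -0.39. The share of all genes that moved 1 way in both sets of a batch was not counted. Most of the 10 genes also rose and fell together, so they are not separate observations and these counts are descriptive.

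Atf3 and Btg2 passed the test of this difference. The spread between libraries in this test came from batches b and c, since batch a holds only set 1 and batch d only set 6. The BDNF effect differed between the 4 batches for Atf3 (edgeR's quasi-likelihood F test on the 12 control and BDNF libraries, adjusted p = 0.0018) and Btg2 (adjusted p = 0.0310), 2 of the 10 genes, against 1.2% of 16780 genes. Atf3 was -0.17, -0.80, -1.08, 0.72, 1.06 and 1.29 log2 from the control of its set in sets 1 to 6, and Btg2 0.06, -0.45, -0.83, 0.28, 0.47 and -0.04. Ier2 had an adjusted p of 0.0606 and Fos, Fosb, Junb and Npas4 between 0.204 and 0.240. The DESeq2 likelihood ratio test called 7 of the 10 (0.936% of genes), adding Fos, Fosb, Junb, Npas4 and Ier2. The call of Btg2 was lost without BDNF 2, BDNF 3, BDNF 4 or BDNF 5 (adjusted p from 0.101 to 0.162), and that of Atf3 held (adjusted p from 1.6e-04 to 0.0192) in each of the 8 leave-outs that could be fitted. Ier2 passed without control 2 (3.2e-04) or control 4 (0.0324), Jund without control 2 (0.0099) and Jun without control 5 (0.0310).

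**Figure D3:**
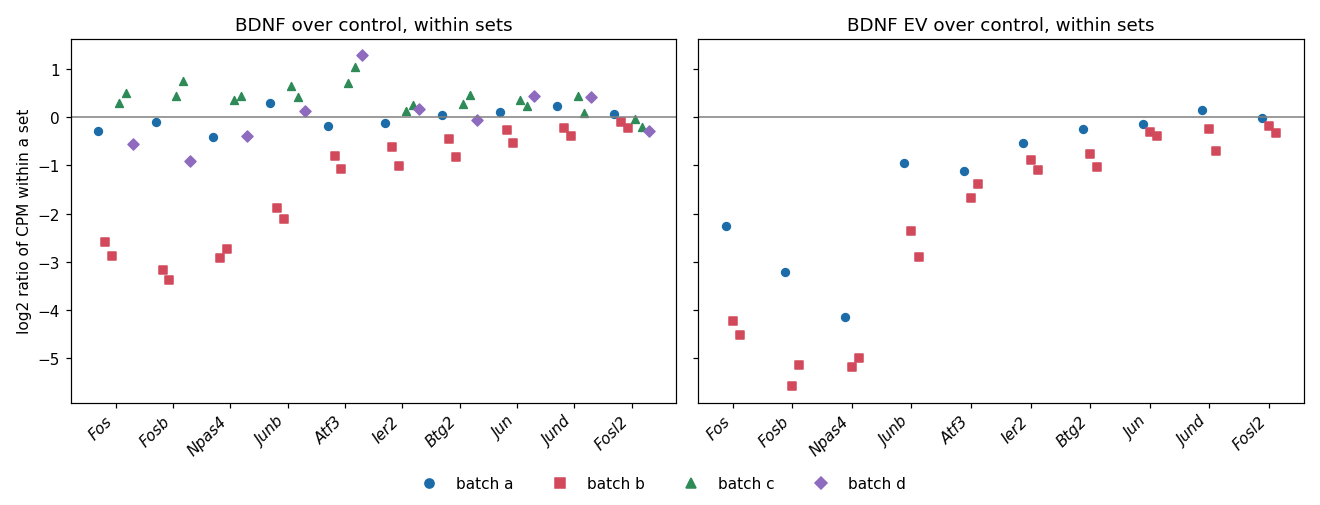
Log2 ratio of CPM between libraries of the same set, for BDNF over control in 6 sets (left) and BDNF EV over control in 3 sets (right), with colour and shape for the batch and 0 as the grey line. On the left the 2 sets of batch b lie below 0 and those of batch c above it for all genes but Fosl2; on the right all points but that of Jund in set 1 lie below 0.

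In a fit of batch b alone (sets 2 and 3, 2 libraries per group), Btg2 was lower after BDNF by 0.64 ± 0.13 (edgeR adjusted p = 0.0203). Jun was lower by 0.40 ± 0.09 (adjusted p = 0.0262), among 4.79% of genes called. Fos at -2.74 ± 0.63 (0.124), Fosb at -3.27 ± 0.71 (0.1098) and Npas4 at -2.78 ± 0.76 (0.170) did not pass. In a fit of batch c alone (sets 4 and 5, 2 libraries per group), Atf3 was higher after BDNF by 0.89 ± 0.16 (edgeR adjusted p = 0.0028). Btg2 was higher by 0.37 ± 0.08 (adjusted p = 0.0104), among 7.15% of genes called. The Btg2 differences thus had opposite signs in the 2 batches. Without batch b, Atf3 was higher by 0.80 ± 0.17 (adjusted p = 0.0075) and Jund by 0.30 ± 0.06 (adjusted p = 0.0025), among 10.4% of genes called.

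Control EVs left none of the 10 genes past the threshold, as did all but 0.0284% of genes. Npas4 was 1.39 ± 0.74 lower than control (adjusted p = 0.862), Fosb 1.56 ± 0.83 lower (0.862) and Fos 1.17 ± 0.67 lower (0.865), and Atf3 0.56 ± 0.42 higher (0.892). Within sets, Fos was 2.16, 0.61 and 2.88 lower than control in sets 1 to 3, and 6 of the 10 genes were lower in all 3 sets. The share of all genes lower in all 3 sets was not counted. Without control EV 2, the high library, the fitted differences were -2.10 for Fos, -2.69 for Fosb, -2.60 for Npas4 and -1.22 for Junb. Without control 3 they were -0.69 for Fos, -0.97 for Fosb, -0.93 for Npas4 and -0.27 for Junb, and none was called in either fit.

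The group median of each of the 10 genes was lowest with BDNF EVs, but the differences from control did not pass the threshold over all genes. The lowest single library was outside that group for 5 of the 10, control EV 1 for Fosb, Fosl2, Jund and Atf3 and control 6 for Jun. Npas4 was 4.50 ± 1.00 lower than control, a 22.6-fold difference with a 95% interval of 4.96-fold to 104-fold (edgeR adjusted p = 0.298). Fosb was 4.50 ± 1.17 lower (adjusted p = 0.384), Fos 3.52 ± 0.85 lower (0.345) and Junb 1.86 ± 0.60 lower (0.490). Atf3 was 1.07 ± 0.50 lower (0.698), Ier2 0.68 ± 0.24 (0.562), Btg2 0.55 ± 0.20 (0.579) and Fosl2 0.19 ± 0.06 (0.409), and Jun and Jund were 0.15 ± 0.17 and 0.16 ± 0.16 lower. All 10 estimates were below 0 and 7 had an unadjusted p under 0.05, where 0.0227% of all genes were called and 4.57% had an unadjusted p under 0.05 and a lower level. Fos, Fosb, Junb and Npas4 had every BDNF EV library below every control library, as 2.24% of all genes had.

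DESeq2 called Npas4 (adjusted p = 2.5e-05), Fosb (0.0015) and Fos (0.0017) lower with BDNF EVs than in controls, 3 of the 10 genes against 0.176% of all genes. Within sets, Npas4 was 4.15, 5.20 and 5.01 lower than the control of its set, Fosb 3.21, 5.59 and 5.15 lower and Fos 2.26, 4.24 and 4.54 lower in sets 1 to 3, and 9 of the 10 genes were lower in all 3 sets, all but Jund. Here too the share of all genes lower in all 3 sets was not counted.

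The comparison that holds the vesicle addition constant, BDNF EV against control EV, called none of the 10 genes and 0% of all genes, with 1475 genes at an unadjusted p under 0.05. Npas4 was 3.12 ± 1.07 lower (edgeR adjusted p = 0.511), Fosb 2.94 ± 1.35 lower (0.593), Fos 2.34 ± 0.91 lower (0.561) and Atf3 1.63 ± 0.51 lower (0.489). In set 1 the EV groups were alike, Fos at 5.79 and 5.40 CPM and Npas4 at 1.91 and 1.70 CPM, and the log2 ratios for Npas4 were -0.17, -4.56 and -1.84 in sets 1 to 3. No gene of the 10 had EV groups that did not overlap, against 4.67% of all genes lower without overlap. Without control EV 2, Npas4 was 1.87, Fosb 1.79, Fos 1.41 and Junb 0.65 lower, at an adjusted p of 1 for each.

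**Figure D4:**
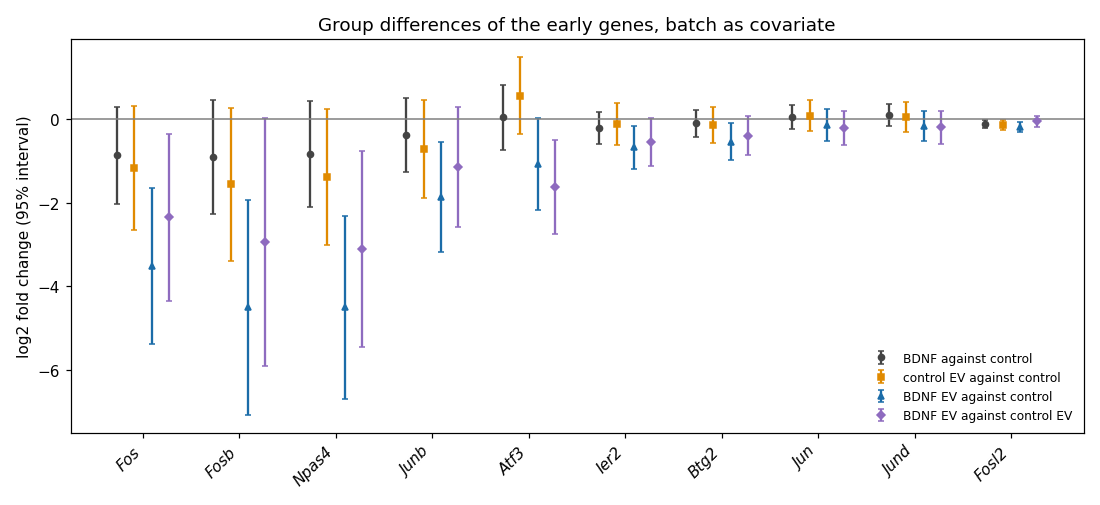
Log2 fold change with 95% interval of each gene in 4 comparisons from the fit with batch as covariate, with 0 as the grey line. The BDNF EV against control intervals of Fos, Fosb, Npas4, Junb, Ier2, Btg2 and Fosl2 lie below 0 but no gene passed the adjusted threshold, and those of Atf3, Jun and Jund cross 0.

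Against direct BDNF, BDNF EVs gave 3.66 ± 1.06 lower Npas4 (edgeR adjusted p = 0.0586), 3.58 ± 1.29 lower Fosb (0.124), 2.66 ± 0.90 lower Fos (0.103) and 1.47 ± 0.63 lower Junb (0.196), none past the threshold that 8.36% of all genes passed. Fos, Fosb, Junb, Jund and Npas4 had every BDNF EV library below every BDNF library, as 7.02% of all genes had. Leaving out BDNF 2 (adjusted p = 0.0230), BDNF 3 (0.0419) or control EV 2 (0.0381) brought Npas4 past the threshold, and DESeq2 called Fos, Fosb and Npas4 (8.52% of all genes called). The effect of BDNF on the vesicle donors minus its direct effect was not called for any of the 10 genes, against 3.34% of all genes, and was nearest for Atf3 at -1.67 ± 0.63 (adjusted p = 0.195). These comparisons share the BDNF, control and EV libraries with those above.

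Genes around the 10 were taken from lists of related factors and cell type markers. Their counts stand against the shares of all genes called, 13.8% for BDNF, 34.5% between batches, 1.2% for the BDNF effect by batch and 8.36% for BDNF EV against BDNF. Of 26 other immediate early genes, 1 rose with BDNF, Arc, the synaptic scaffold gene, by 1.09 ± 0.18 (edgeR adjusted p = 8.8e-04), with a median over the list of -0.10 against -0.0017 over all genes. Between batches 19 of the 26 differed, and 9 had a BDNF effect that differed by batch, with the lowest adjusted p for the phosphatase gene Dusp1 (8.6e-04) and Gadd45g (0.0021). Against direct BDNF, 6 of the 26 fell with BDNF EVs, Egr4 by 2.23 ± 0.53 and Arc by 1.78 ± 0.27 with the largest changes. Of 13 tested neuronal genes linked to AP-1 or NPAS4 as targets, 7 rose and 1 fell with BDNF, the neuropeptide gene Npy by 2.97 ± 0.09 (adjusted p = 3.9e-15) and the synaptic pentraxin gene Nptx2 by 1.08 ± 0.16 (adjusted p = 4.5e-04) with the largest changes, while Fos and Npas4 themselves were not called. The list of AP-1 partners had 1 called of 12 tested, Mafk, which fell by 0.37 ± 0.06 with BDNF (adjusted p = 9.4e-05). Of 16 SRF, CREB and MEF2 factors 2 fell, Elk1 by 0.15 ± 0.05 and Mef2d by 0.14 ± 0.04, and of 18 kinases of the pathway 2 rose, Rps6ka3 by 0.23 ± 0.04 and Map2k1 by 0.12 ± 0.04. The shares of the immediate early genes and the AP-1 partners called with BDNF were below that of all genes, and those of the factors and kinases were close to it. None of these lists had a gene called for control EVs or BDNF EVs against control.

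Cell type markers moved with BDNF as well, where 13.8% of all genes were called. Of 11 neuron markers 5 rose and 3 fell, of 8 astrocyte markers 1 rose (Aldh1l1) and 3 fell (Gfap, Aqp4 and Gja1), and of 8 oligodendrocyte lineage markers 3 rose and 2 fell. Of 8 vascular and fibroblast markers tested 2 rose and 1 fell, and of 3 microglia markers tested 1 rose, Ptprc. Of 7 inhibitory neuron markers tested 5 rose with BDNF, their summed level running from 536 to 880.2 CPM in controls and from 765 to 1234 CPM after BDNF, and of 8 progenitor and proliferation markers 4 rose, summed from 326 to 389.9 CPM in controls and 376 to 545 CPM after BDNF. Ptprc and the inhibitory neuron marker Vip, both counted as rising, had low means of 0.492 and 0.325 CPM. Astrocyte markers summed to 2246 to 2997 CPM in controls, 2178 to 2960 CPM after BDNF, 2636 to 3042 CPM with control EVs and 2488 to 2838 CPM with BDNF EVs, with batch d lowest at 2178 to 2246 CPM. Microglia markers summed to 12.9 to 17.8 CPM in controls and 14.1 to 16.9 CPM after BDNF. Their part in the levels of the 10 genes was not tested.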

How the data were processed

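RNA sequencing of 18 hippocampal libraries was used; 24 small RNA libraries of the series were not used here. The authors deposited whole-number counts of reads per Ensembl gene, per the file headers. Per the submitters' processing notes they used CASAVA (1.8 and 1.8.2), cutadapt 1.8.1, DESeq2 and mm10; neither aligner nor counter is named in those notes. Symbols came from a table of gene IDs, with 55144 of 55471 IDs matched. In R 4.3.3, edgeR 4.0.16 was run on the counts: TMM scaling, filterByExpr with a minimum count of 10, and quasi-likelihood F tests of group with batch as covariate over all 18 libraries, Benjamini-Hochberg adjusted over all genes tested, threshold 0.05. CPM use TMM-scaled library sizes, log2 CPM a prior count of 2. The batch-by-BDNF test used 12 libraries. SE is the absolute log2 fold change divided by the root of F. DESeq2 1.42.0, another scaling, no filter, no batch term, a replicate block, subsets of samples and leave-outs were alternatives. The edgeR script was tested on simulated data. Libraries with the same set number deviated together from their group means (correlations 0.349 to 0.578 for BDNF with control, 0.217 to 0.605 for control EV with control, 0.293 to 0.574 for BDNF EV with control, 0.185 to 0.564 between the EV groups). Batch was not removed from these correlations and different sets were not compared, so they cannot tell a shared set from a shared batch or lane. Set numbers, which are the numbers in the library names, paired libraries only in the within-set ratios and the replicate block. The main tests held batch and not set. The named genes are all 10 members, the called genes with the largest changes in each list, and the 2 genes most like each member; other examples, including the markers and the genes with the lowest adjusted p, were chosen after their values were seen. Members and lists were chosen with earlier results of these data known.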

Additional observations from a re-analysis of the deposited data

Results flagged for a closer look

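The BDNF effect differed between batches for Atf3 (edgeR quasi-likelihood F test on 12 libraries, adjusted p = 0.0018) and for Btg2 (adjusted p = 0.0310); Btg2 was lower after BDNF in both sets of batch b and higher in both sets of batch c, and Atf3 likewise. Jun in BDNF 5 stood apart from the other 5 BDNF libraries, at 194 CPM against 154 to 164 CPM, its gap to the nearest being 0.73 of the group's range on the log2 scale. It was 1 of 20 groups of 6 libraries examined, and chance flags about 1 in 20.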

How the results depend on the processing

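With DESeq2, BDNF EV against control gave 31 calls in place of 4, with 3 of the 10 genes (Fos, Fosb, Npas4); BDNF EV against BDNF called the same 3, and the BDNF effect by batch 7. Without the filter on low counts, calls numbered 38 for control EV, 156 for BDNF EV against control, 167 against control EV, 1150 for the donor effect minus the direct effect and 1018 for the BDNF effect by batch, with 1 of the 10 genes (Fosl2) called for BDNF and 5 for the BDNF effect by batch. Without the batch term, calls were 843 for BDNF, 2 for control EV and 2 for BDNF EV against control, 870 for BDNF EV against BDNF and 51 for the donor effect minus the direct effect. The replicate block gave 386 calls in place of 589 for the donor effect minus the direct effect and changed no other call count by over 1.5 times and no call of the 10 genes. Fitting only the groups compared gave 235 calls for BDNF EV against control, with 2 of the 10 genes (Atf3, Npas4), and 5 of the 10 against BDNF. Shares of all genes called are not given for these fits or for those without the filter, so their counts of the 10 are descriptive. The main fits called 8.36% of all genes for BDNF EV against BDNF, 13.8% for BDNF and 1.2% for the BDNF effect by batch. With sets 1 to 3 only, calls were 1067 for BDNF, 12 for BDNF EV against control and 305 for the donor effect minus the direct effect. Within batch b they were 833 for BDNF (2 of the 10 genes), 114 for BDNF EV against control (1, Btg2), 118 against control EV, 611 against BDNF and 147 for the donor effect minus the direct effect; Jun turned to -0.40 with BDNF. Within batch c, BDNF gave 1213 calls (2 of the 10 genes), and Btg2 turned to 0.37. The next alternatives were chosen after seeing the data: without batch c, BDNF gave 1448 calls, and without batch b 2 of the 10 genes. Leaving out each library in turn gave 3 to 7 calls for control EV, 4 to 14 for BDNF EV against control, 0 to 1 against control EV, 704 to 1599 against BDNF, 240 to 825 for the donor effect minus the direct effect and 40 to 472 for the BDNF effect by batch, with 0 to 1 of the 10 genes called for BDNF, 0 to 1 for BDNF EV against BDNF, 5 to 8 between batches and 1 to 4 for the BDNF effect by batch. The moved counts among these ran from 704 to 951 against BDNF and 240 to 350 for the donor effect minus the direct effect. The cause of these shifts was not tested. The BDNF effect by batch could not be fitted without any library of sets 1 or 6, and batch b left out of the EV comparisons leaves 1 library per group and was not run. RLE scaling changed no call of the 10 genes. Without the filter, Junb and Btg2 lost their calls between batches (adjusted p 0.0516 and 0.0517). Depth limits Fosb most, with 11 reads in its lowest library.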
